A study of Mus musculus with 12 samples.

Results

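Transcripts of 10 genes that carry the hepatic urea cycle and the handling of ammonia around it were followed in mouse liver with and without the nuclear receptor REV-ERBα, in the light and in the dark phase. The genes were taken by name: Cps1, Nags, Otc, Ass1, Asl and Arg1, which encode the enzymes of the cycle and the synthase of its obligatory activator, the mitochondrial carriers Slc25a15 and Slc25a13, the liver glutaminase Gls2, and the glutamine synthetase Glul. All 10 symbols were found among the 38926 gene symbols of the count files, and all 10 were among the 14488 genes that passed the filter on low counts.

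The urea cycle turns the ammonia set free by amino acid breakdown into urea and is complete only in hepatocytes, with its first steps inside mitochondria and the later ones in the cytosol. Periportal hepatocytes, which meet the portal blood first, carry most of the cycle and the liver glutaminase, while a narrow layer of pericentral hepatocytes around the central vein captures the remaining ammonia as glutamine through glutamine synthetase. Protein intake, glucagon and glucocorticoids are known to raise the cycle's enzymes.

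Poly(A) RNA from whole liver was sequenced in 4 groups of 3 samples each, namely Rev-erbα-/- mice and wild-type controls, each sampled at ZT8 or ZT20, where ZT is the time after lights on, so that ZT8 lies in the light phase and ZT20 in the dark phase of a cycle with equal light and dark. All mice were males of 12 weeks on a mixed 129Ola/C57BL6 background, with food and water freely available. The deletion of REV-ERBα, a transcriptional repressor of the circadian clock, was present in the whole body, so that liver cells were not its only site, and feeding was not recorded in the labels. The labels give each sample as a replicate of its group without naming the animal or litter, and the p-values rest on the spread between these samples. Because the samples were bulk tissue, fewer cells of a type and less RNA per cell cannot be told apart.

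Between 17641809 and 26060192 reads per library were counted on genes, and 3 counts corresponded to 0.117 to 0.167 CPM (counts scaled to library size), far below each of the 10 genes. The targeted gene, Nr1d1, was read at 129, 96.2 and 75.3 CPM in wild-type and 63.0, 71.9 and 80.6 CPM in Rev-erbα-/- libraries at ZT8, and at 2.28, 1.86 and 2.15 CPM and 3.57, 2.96 and 2.09 CPM at ZT20. These values overlapped between the genotypes at both times, and counts over the whole gene do not show which exons were read, so this gene did not check the labels. Arntl (Bmal1), a gene that REV-ERBα is known to repress, was higher in the Rev-erbα-/- libraries at ZT8 by 5.18 on the log2 scale (adjusted p = 2.23e-12 in edgeR). Wild-type replicates 2 and 3 at ZT8 stood apart from the rest: 7 acute-phase transcripts summed to 18173 and 23249 CPM in them and to between 2169 and 3204 CPM in the other 10 libraries. The comparisons that use wild-type liver at ZT8 were therefore repeated without both of them, which leaves 1 wild-type library at that time, and the part of the acute-phase transcripts in these results was not tested. Of 8 hepatocyte markers, 7 were found in the files and summed to at least 63180.5 CPM in every library, while 6 pancreatic acinar markers summed to at most 1.22 CPM.

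The 10 genes together took 0.811% to 0.963% of the counted reads in wild-type liver at ZT8, 1.03% to 1.04% in Rev-erbα-/- liver at ZT8, 1.07% to 1.42% in wild-type liver at ZT20 and 1.12% to 1.22% in Rev-erbα-/- liver at ZT20. Levels of different genes were compared as CPM per kilobase of annotated exon, averaged over the 4 groups. Cps1 came first with 1004 CPM per kilobase (range over the 12 libraries 674 to 1588), followed by Arg1 with 691 (453 to 908) and Glul with 308 (235 to 382). Ass1, Asl and Otc lay at 159, 136 and 130.5 CPM per kilobase with ranges that overlapped one another, Gls2 at 101, Slc25a15 and Slc25a13 at 75.5 and 68.0 with overlapping ranges, and Nags was lowest at 24.9 (18.0 to 30.4). The range of Cps1 also overlapped that of Arg1, and the range of Gls2 those of Asl, Otc and Slc25a15. The order rests on the length used: per kilobase of coding sequence Arg1 came first and Cps1 second, and 6 of the 10 genes changed place.

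The place of Ass1 in this order depends on a near-identical copy. Gm5424, a processed pseudogene at chr10:62071123-62072362 (mm10), matched the Ass1 transcript at 99.5% of 1240 aligned bases and held 85.3% to 88% of the reads counted on the pair, 25736 to 79118 counts per library. It was read at 2281, 1628 and 1308 CPM in wild-type and 2081, 2422 and 2348 CPM in Rev-erbα-/- liver at ZT8, and at 3680.4, 2875 and 2691 CPM and 2658, 2564 and 3010.1 CPM at ZT20. Which of the loci gave these reads cannot be told from counts per symbol, so every Ass1 value is uncertain in its level. Its genotype and time effects with all libraries, and its interaction, are given below with and without the copy. Its other values are given under its own symbol alone. With the copy added, Ass1 came first of the 10 genes with 1179 CPM per kilobase, ahead of Cps1. Glul has a similar but less abundant copy, Glns-ps1 at chr11:19720355-19721472, which matched it at 96.8% of 1126 aligned bases and held 7.93% to 10.6% of the reads of the pair. An antisense gene, Gm11586, shares 443 exon bases with Nags, or 15.6% of the exon length of Nags, and was counted at 0 to 6 reads per library, and because strand was not used, reads from the shared bases could not be given to either gene.

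**Figure D1:**
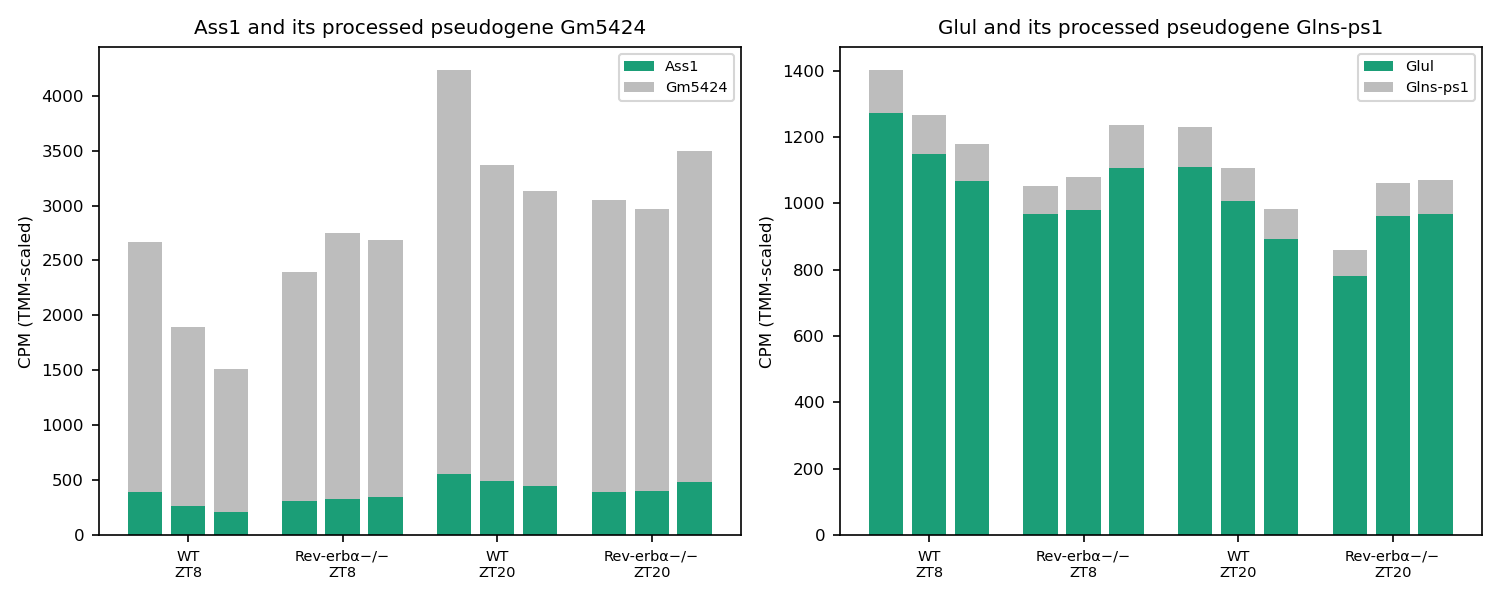
CPM scaled by TMM factors in each of the 12 libraries, as bars from 0 stacked from the gene (green) and its processed pseudogene (grey), with replicates 1 to 3 from left to right in each group. The pseudogene Gm5424 makes up 85.3% to 88% of the Ass1 pair in every library, and Glns-ps1 7.93% to 10.6% of the Glul pair.

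Promoter sequences were at hand for 6 of the 10 genes (Nags, Otc, Ass1, Slc25a15, Slc25a13 and Glul, with 7 start sites in all), taken from RefSeq on GRCm38.p6. The 250 bases before each start site were searched on both strands for AGGTCA, the half-site of nuclear receptors such as REV-ERBα, CACGTG, the E-box bound by clock activators and other basic helix-loop-helix factors, TGACG, the half-site of factors that answer to cAMP, TGTTCT, the glucocorticoid receptor half-site, the CCAAT box, and TTANGTAA, the D-box bound by PAR-domain clock factors. These were held by 14%, 6.02%, 17.8%, 16.1%, 33.8% and 2.06% of all 32851 RefSeq promoters in windows of the same length. The 4 sequences below are shown because each belongs to a different step of ammonia handling and holds a clock-related or nuclear receptor motif, and capitals mark every match to one of the 6 motifs.
Nags (chr11:102145263-102145512, plus strand): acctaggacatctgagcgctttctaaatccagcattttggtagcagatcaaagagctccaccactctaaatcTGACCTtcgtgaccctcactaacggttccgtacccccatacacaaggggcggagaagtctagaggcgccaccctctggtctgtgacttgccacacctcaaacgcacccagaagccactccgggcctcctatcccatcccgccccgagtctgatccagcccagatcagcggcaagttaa
Ass1 (chr2:31470020-31470269, plus strand): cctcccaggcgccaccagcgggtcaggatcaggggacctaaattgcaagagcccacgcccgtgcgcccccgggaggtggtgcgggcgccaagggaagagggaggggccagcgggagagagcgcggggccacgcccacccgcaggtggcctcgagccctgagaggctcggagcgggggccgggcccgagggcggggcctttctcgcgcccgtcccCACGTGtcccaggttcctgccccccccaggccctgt
Slc25a15, second start site (chr8:22398278-22398527, minus strand): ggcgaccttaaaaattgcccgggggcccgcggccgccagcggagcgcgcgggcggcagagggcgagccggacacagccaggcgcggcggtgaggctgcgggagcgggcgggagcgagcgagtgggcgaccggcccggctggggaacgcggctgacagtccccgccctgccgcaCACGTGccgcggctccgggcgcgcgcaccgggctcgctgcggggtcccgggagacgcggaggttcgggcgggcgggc
Glul (chr1:153899679-153899928, plus strand): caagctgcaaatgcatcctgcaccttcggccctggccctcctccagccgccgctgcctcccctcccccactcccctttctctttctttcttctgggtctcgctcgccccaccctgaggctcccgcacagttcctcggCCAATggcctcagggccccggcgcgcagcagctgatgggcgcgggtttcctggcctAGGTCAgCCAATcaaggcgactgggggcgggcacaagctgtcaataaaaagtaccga

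Nags held 1 AGGTCA on the opposite strand, 178 to 173 bases before its start. Ass1 held 1 CACGTG at 36 to 31 bases before its RefSeq start, and the second start site of Slc25a15 held 1 at 77 to 72 bases. Both matches lie inside the gene spans given below, which come from GENCODE and begin further upstream. Glul held 1 AGGTCA at 57 to 52 bases and CCAAT boxes at 113 to 109 and 50 to 46 bases. Slc25a13 held CACGTG at 125 to 120, CCAAT at 22 to 18 and TGACG at 13 to 9 bases before its start, and no match was found in the windows of Otc and of the first start site of Slc25a15. None of the 7 windows held TGTTCT or TTANGTAA. A match of 5 to 8 letters is a description of the sequence and not a binding site.

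The genotype comparison asked whether loss of REV-ERBα moved these transcripts at either time. Effects are given as log2 fold changes ± SE with 3 livers per group, with p-values of the edgeR quasi-likelihood test adjusted over all genes by Benjamini-Hochberg. At ZT8, Arg1, the enzyme that releases urea, and Nags, which makes the activator of the first step, were higher in Rev-erbα-/- liver by 1.34-fold and 1.23-fold, and none of the 10 genes was lower by the test. These were 2 of 10 genes, beside 8.45% of all genes tested that were called in either direction, 4.4% called higher and 4.04% called lower. The median log2 fold change of the 10 genes was 0.19, beside 0.0018 for all genes tested. Without wild-type replicates 2 and 3 at ZT8, the values of the 10 genes ran from -0.32 (Glul) to 0.34 (Cps1). Ass1, Asl, Slc25a13, Gls2 and Glul were then negative. At ZT20 none of the 10 genes passed the test, beside 3.63% of all genes (2.09% higher and 1.54% lower), and no log2 fold change exceeded 0.22 in size. Both calls at ZT8 were lost without wild-type replicates 2 and 3. The log2 fold changes of Arg1 and Nags were then 0.23 and 0.21, in place of 0.42 and 0.30. With 1 wild-type library left at ZT8, fewer of all genes were called as well, at ZT8 and in the interaction below. That general loss also stands beside the wider lists.

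**Figure D2:**
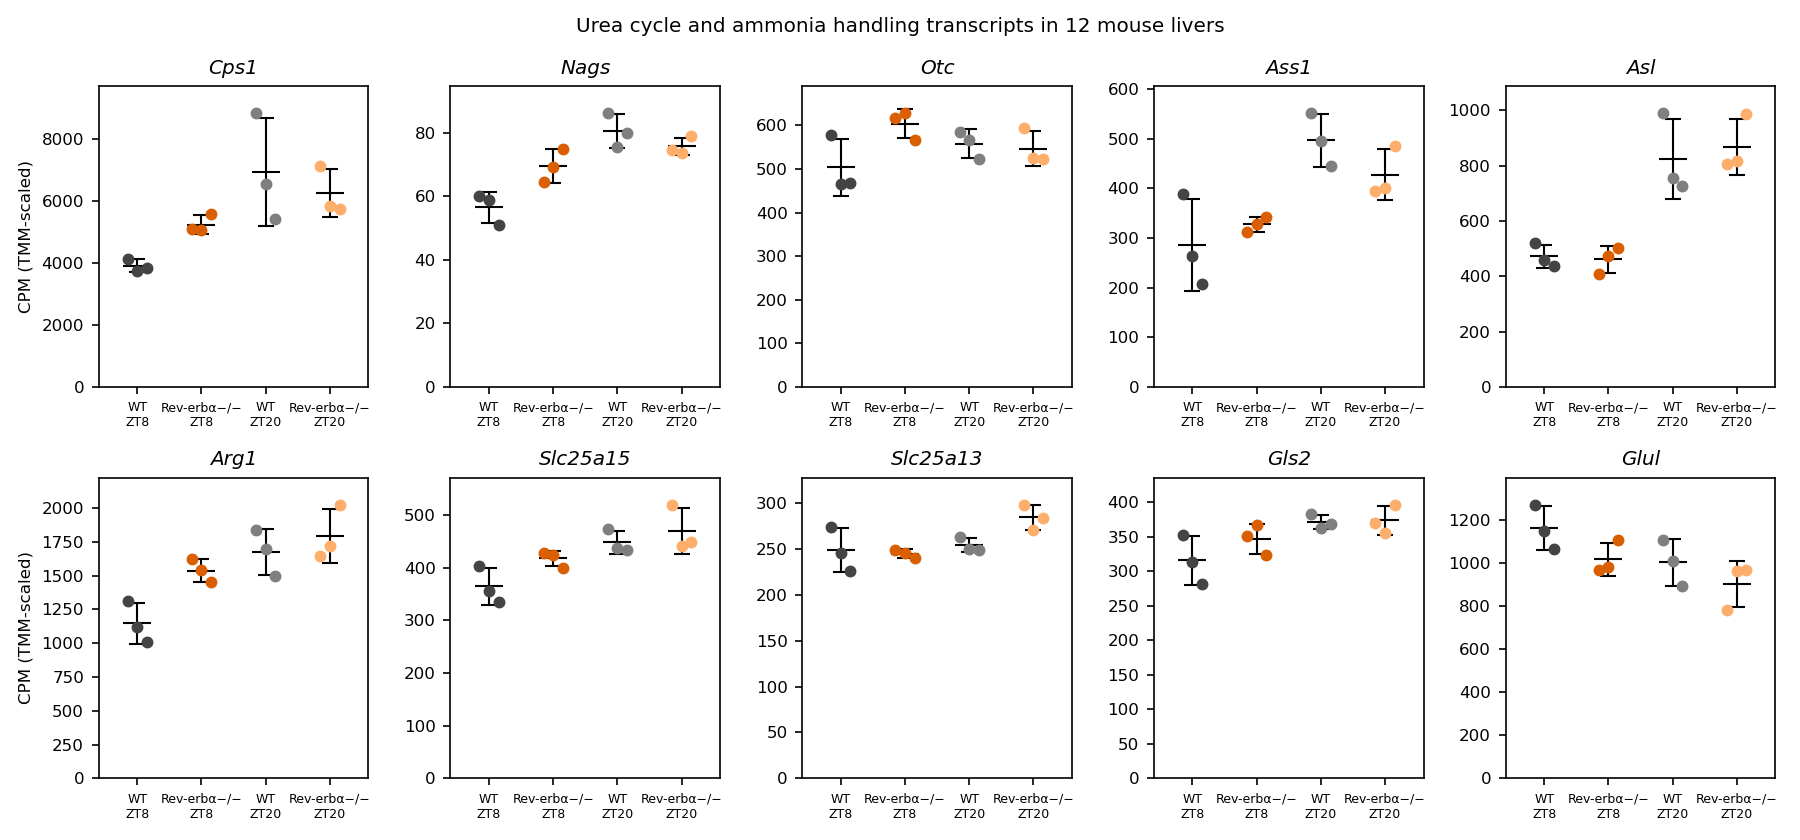
CPM scaled by TMM factors, from 0, for each of the 10 genes in the 12 livers, with 1 point per liver, replicates 1 to 3 from left to right in each group, and the mean ± SD (n = 3) as a black bar. The Arg1 and Nags points of Rev-erbα-/- liver at ZT8 lie above all wild-type points of ZT8, and the Asl points of ZT20 lie above all those of ZT8 in both genotypes.

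Nags (mm10 chr11:102145513-102149477, plus strand) encodes the mitochondrial N-acetylglutamate synthase, whose product carbamoyl phosphate synthetase 1 needs in order to work. It was read at 60.2, 58.7 and 51.1 CPM in wild-type and 64.4, 69.2 and 75.1 CPM in Rev-erbα-/- liver at ZT8, so that the groups did not overlap. At ZT20 the values were 86.2, 75.6 and 80.1 CPM and 74.7, 73.7 and 79.0 CPM, with overlap. The log2 fold change was 0.30 ± 0.081 (adjusted p = 0.0359) at ZT8 and -0.089 ± 0.080 (adjusted p = 0.699) at ZT20. The difference between these effects, 0.38 ± 0.11 (adjusted p = 0.063), did not pass the test, although it came nearest to it of the 10 genes. Without both wild-type libraries with high acute-phase transcripts, the change at ZT8 was 0.21 ± 0.11 (adjusted p = 0.468).

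Cps1 (chr1:67123026-67231259, plus strand) encodes carbamoyl phosphate synthetase 1, the mitochondrial enzyme that fixes free ammonia at the entry of the cycle. At ZT8 it was read at 4134, 3743 and 3840.5 CPM in wild-type and 5074, 5044 and 5586 CPM in Rev-erbα-/- liver, and every Rev-erbα-/- value lay above every wild-type value, as was the case in either direction for 25.6% of all genes. The values at ZT20 were 8819.6, 6543 and 5409 CPM and 7133, 5846 and 5739 CPM, the widest spread being in wild-type liver, where replicate 1 was highest. The log2 fold change at ZT8 was 0.42 ± 0.15 (adjusted p = 0.107) and did not pass in edgeR, while DESeq2 called it (adjusted p = 0.0401). At ZT20 it was -0.15 ± 0.15 (adjusted p = 0.744), and the difference between the effects was 0.57 ± 0.22 (adjusted p = 0.152). Without both wild-type libraries with high acute-phase transcripts, the change at ZT8 was 0.34 ± 0.22 (adjusted p = 0.585).

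Otc (chrX:10252305-10321024, plus strand) encodes ornithine transcarbamylase, which joins carbamoyl phosphate to ornithine. Its values at ZT8 were 578, 465 and 468 CPM in wild-type and 618, 628 and 567 CPM in Rev-erbα-/- liver, overlapping through wild-type replicate 1. At ZT20 they were 586, 567 and 523 CPM and 593, 525 and 523 CPM. The log2 fold changes were 0.26 ± 0.10 (adjusted p = 0.128) and -0.030 ± 0.10 (adjusted p = 0.939), and neither passed. Without wild-type replicates 2 and 3, the value at ZT8 was 0.060 ± 0.12 (adjusted p = 0.9).

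Ass1 (chr2:31470207-31520672, plus strand) encodes argininosuccinate synthase, which brings in the second nitrogen from aspartate in the cytosol. Under its own symbol it was read at 389, 264 and 207 CPM in wild-type and 311, 329 and 342 CPM in Rev-erbα-/- liver at ZT8. Wild-type replicate 1 lay above the Rev-erbα-/- values and replicates 2 and 3, the libraries with high acute-phase transcripts, below them. At ZT20 the values were 551, 495 and 445 CPM and 395, 401 and 486 CPM. The change at ZT8 was 0.19 ± 0.18 (adjusted p = 0.575) alone and 0.37 ± 0.17 (adjusted p = 0.221) with Gm5424 added, and at ZT20 it was -0.22 ± 0.18 (adjusted p = 0.673) alone and -0.17 ± 0.17 (adjusted p = 0.736) with the copy. Without wild-type replicates 2 and 3, the sign at ZT8 turned, to -0.25 ± 0.14 (adjusted p = 0.491).

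Asl (chr5:130011258-130029247, minus strand) encodes argininosuccinate lyase, which cleaves the product of the preceding step into arginine and fumarate. It was read at 518, 459.7 and 437 CPM in wild-type and 408, 473 and 501 CPM in Rev-erbα-/- liver at ZT8, and at 989, 755 and 726 CPM and 804, 817 and 986 CPM at ZT20, with overlap between the genotypes at both times. The genotype log2 fold changes were -0.034 ± 0.13 (adjusted p = 0.908) at ZT8 and 0.078 ± 0.13 (adjusted p = 0.868) at ZT20, with a 95% interval -0.31 to 0.24 and a 95% interval -0.20 to 0.35.

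Arg1 (chr10:24915221-24927484, minus strand) encodes the cytosolic arginase of the liver, which splits arginine into urea and ornithine. It was read at 1309, 1123 and 1008 CPM in wild-type and 1620.2, 1541 and 1452 CPM in Rev-erbα-/- liver at ZT8, without overlap. At ZT20 the values were 1836, 1695 and 1499.5 CPM and 1646, 1719 and 2024 CPM, with overlap. The log2 fold change was 0.42 ± 0.12 (adjusted p = 0.0427) at ZT8 and 0.10 ± 0.12 (adjusted p = 0.801) at ZT20, and the difference between these effects was 0.32 ± 0.17 (adjusted p = 0.317). Without both wild-type libraries with high acute-phase transcripts, the change at ZT8 was 0.23 ± 0.15 (adjusted p = 0.585).

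The carriers link the cycle's compartments. Slc25a15 (chr8:22375551-22398597, minus strand), which exchanges ornithine for citrulline across the inner mitochondrial membrane, was read at 402, 355 and 335 CPM in wild-type and 428, 425 and 400.2 CPM in Rev-erbα-/- liver at ZT8. At ZT20 it was read at 473, 438 and 434 CPM and 519, 440.2 and 449 CPM. The genotype groups overlapped at both times, and the log2 fold changes were 0.20 ± 0.093 (adjusted p = 0.218) and 0.066 ± 0.093 (adjusted p = 0.836). At ZT8 it was 0.049 ± 0.12 (adjusted p = 0.917) without wild-type replicates 2 and 3. Slc25a13 (chr6:6041218-6217173, minus strand), citrin, which delivers the aspartate that argininosuccinate synthase uses, had values of 274, 246 and 226 CPM in wild-type and 249, 246 and 240.0 CPM in Rev-erbα-/- liver at ZT8. At ZT20, 263, 250.1 and 249 CPM stood against 298, 271 and 284 CPM. It was the only one of the 10 genes whose genotype groups did not overlap at ZT20, as was also true of 22.5% of all genes, and its change there was 0.16 ± 0.080 (adjusted p = 0.372).

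The glutamine enzymes stand at either end of the liver's ammonia gradient. Gls2 (chr10:128194457-128210004, plus strand), the glutaminase that releases ammonia in periportal mitochondria, was read at 352, 313 and 282 CPM in wild-type and 350.3, 367 and 323 CPM in Rev-erbα-/- liver at ZT8, and at 383, 362 and 368 CPM and 369.6, 355 and 396 CPM at ZT20. Its genotype changes of 0.14 ± 0.091 (adjusted p = 0.398) and 0.011 ± 0.091 (adjusted p = 0.981) did not pass, and without wild-type replicates 2 and 3 the value at ZT8 was -0.026 ± 0.11 (adjusted p = 0.957). Glul (chr1:153899944-153909723, plus strand), the pericentral glutamine synthetase, was read at 1271, 1149 and 1068 CPM and 968, 980.3 and 1107 CPM at ZT8, and at 1109, 1008 and 892 CPM and 780.2, 963 and 968 CPM at ZT20. It had negative log2 fold changes at both times, -0.19 ± 0.12 (adjusted p = 0.347) and -0.15 ± 0.12 (adjusted p = 0.631), which did not pass either. Without those libraries the value of Glul at ZT8 was -0.32 ± 0.15 (adjusted p = 0.391). Adding Glns-ps1 left the values with all libraries at -0.19 ± 0.12 (adjusted p = 0.358) and -0.15 ± 0.12 (adjusted p = 0.641).

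**Figure D3:**
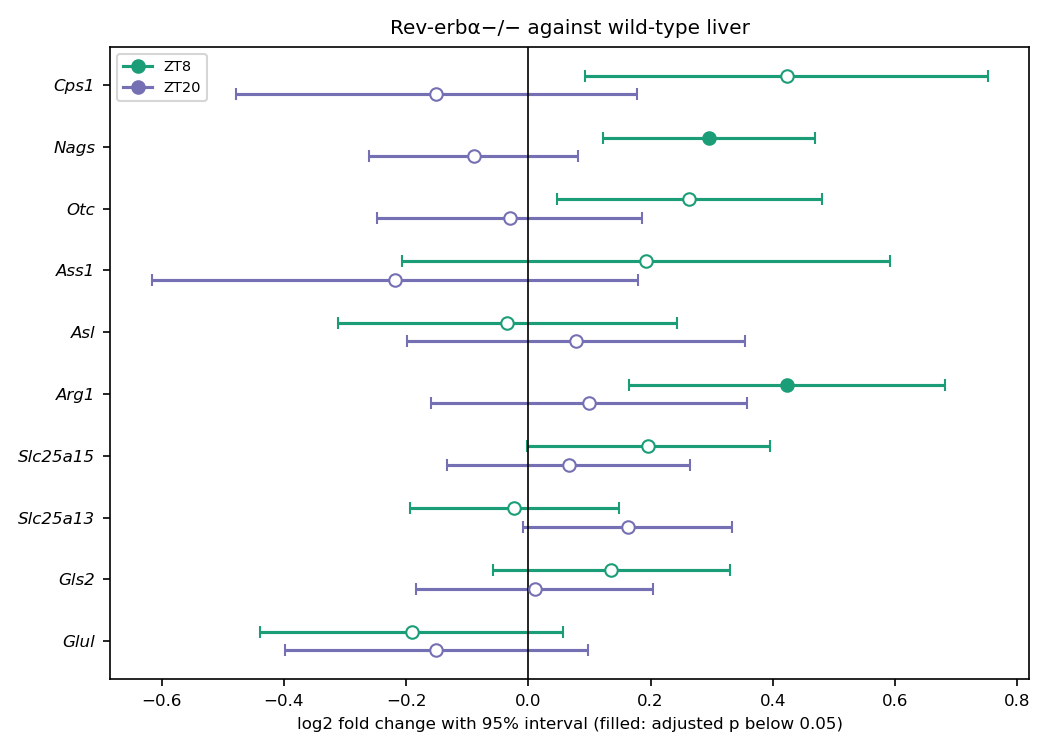
Log2 fold change of Rev-erbα-/- against wild-type liver with its 95% interval for the 10 genes, at ZT8 (green) and ZT20 (purple), filled where the adjusted p lay below 0.05. Arg1 (0.42) and Nags (0.30) at ZT8 are the filled points, and at ZT20 no value exceeds 0.22 in size.

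The difference between the genotype effects at ZT8 and ZT20 was tested as an interaction. It passed for none of the 10 genes in edgeR, beside 5.88% of all genes tested (3.05% with a positive and 2.83% with a negative value). Cps1 and Nags had an unadjusted p below 0.05, and DESeq2 called 1 gene, Nags, beside 1086 of 15545 genes. With Gm5424 added, Ass1 had 0.54 ± 0.25 (unadjusted p = 0.0451, adjusted p = 0.24 in edgeR). The genes whose interaction is not given elsewhere lay at 0.41 (Ass1), 0.29 (Otc), 0.13 (Slc25a15), 0.13 (Gls2), -0.041 (Glul) and -0.19 (Slc25a13) on the log2 scale. At ZT20, likewise, 0 of the 10 genes had an unadjusted p below 0.05 in edgeR and DESeq2 called 0. The effects at ZT8 are therefore not shown to differ from those at ZT20. Of the single libraries, wild-type replicate 1 at ZT8 weighed on these counts in the other direction from replicates 2 and 3. Without it, 4 genes (Otc, Ass1, Arg1 and Nags) were called higher at ZT8 and 2 (Ass1 and Nags) in the interaction. Over all genes, 1811 were then called at ZT8 and 1260 in the interaction, in place of 1224 and 852. At ZT8 none of the 10 was called without wild-type replicate 2 or 3 at ZT8, where 542 and 749 of all genes were. None was called without Rev-erbα-/- replicate 2 or 3 at ZT8 (607 and 1193 of all genes) or replicate 2 at ZT20 (961). Without Rev-erbα-/- replicate 1 at ZT8 or wild-type replicate 2 at ZT20, 1 (Nags) was called, beside 882 and 948 of all genes.

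The time comparison asked how the same transcripts differed between light and dark phase within each genotype. In wild-type liver, 6 of the 10 genes were higher at ZT20 than at ZT8 and none was lower, beside 27.7% of all genes that were called in either direction, 13.8% called higher and 13.9% called lower. The 6 were 5 of the 6 genes of the cycle and its activator, namely Cps1, Ass1, Asl, Arg1 and Nags, and the ornithine carrier Slc25a15. Without scaling factors on the library totals, which moved the split of all called genes from 2005 higher and 2013 lower to 1452 higher and 2555 lower, 5 of the 10 were called, Slc25a15 being lost. In Rev-erbα-/- liver 1 gene, Asl, was higher at ZT20, beside 17.5% of all genes called, 8.79% higher and 8.67% lower. Wild-type replicate 1 at ZT8 is no part of this contrast but of the shared fit and filter. Without it, 3 genes (Ass1, Asl and Slc25a13) were called there, beside 2847 of all genes in place of 2530. These comparisons share their samples with the genotype comparisons, and the difference between the genotypes in the time effect is the same interaction, which passed for none of the 10.

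The largest time effects of wild-type liver among the 10 genes were those of Cps1, Asl and Ass1. Cps1 rose from 3906 ± 203 CPM (SD, n = 3) to 6924 ± 1737 CPM (SD, n = 3), a log2 change of 0.83 ± 0.16 (adjusted p = 0.00104) or 1.77-fold, without overlap. In Rev-erbα-/- liver it stood at 5235 ± 305 CPM (SD, n = 3) and 6239 ± 776 CPM (SD, n = 3), a change of 0.25 ± 0.15 (adjusted p = 0.29) that did not pass. Ass1 rose from 287 ± 93.1 CPM (SD, n = 3) to 497 ± 53.2 CPM (SD, n = 3), by 0.79 ± 0.18 (adjusted p = 0.00695) on the log2 scale and by 0.82 ± 0.18 (adjusted p = 0.0029) with Gm5424 added. In Rev-erbα-/- liver its change was 0.38 ± 0.18 (adjusted p = 0.181), and 0.28 ± 0.17 (adjusted p = 0.303) with the copy.

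Asl was the gene called in both genotypes. It rose from 472 ± 42.1 CPM (SD, n = 3) to 823 ± 144 CPM (SD, n = 3) in wild-type liver and from 461 ± 47.8 CPM (SD, n = 3) to 869 ± 101 CPM (SD, n = 3) in Rev-erbα-/- liver. All 6 values at ZT20 lay above all 6 values at ZT8, groups that did not overlap being found for 42.3% of all genes in wild-type liver and for 35% in Rev-erbα-/- liver, and the log2 changes were 0.80 ± 0.13 (adjusted p = 0.000325) and 0.92 ± 0.13 (adjusted p = 0.000258), or 1.75-fold and 1.89-fold. The interaction was -0.11 ± 0.18 (adjusted p = 0.791), with a 95% interval -0.50 to 0.28.

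Arg1 rose from 1147 ± 152 CPM (SD, n = 3) to 1677 ± 169 CPM (SD, n = 3) in wild-type liver, by 0.55 ± 0.12 (adjusted p = 0.00348) on the log2 scale. In Rev-erbα-/- liver its change was 0.22 ± 0.12 (adjusted p = 0.229). Nags rose from 56.7 ± 4.88 CPM (SD, n = 3) to 80.6 ± 5.33 CPM (SD, n = 3) in wild-type liver, by 0.51 ± 0.081 (adjusted p = 0.000277), and its change in Rev-erbα-/- liver was 0.12 ± 0.081 (adjusted p = 0.329). Slc25a15 rose from 364 ± 34.5 CPM (SD, n = 3) to 448 ± 21.7 CPM (SD, n = 3), by 0.30 ± 0.093 (adjusted p = 0.0263), and had a change of 0.17 ± 0.093 (adjusted p = 0.238) in Rev-erbα-/- liver. In these genes, as in Cps1, the Rev-erbα-/- mean at ZT8 lay between the wild-type means of ZT8 and ZT20.

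The other genes did not pass in wild-type liver in edgeR. Gls2 had a log2 change of 0.23 ± 0.091 (adjusted p = 0.0707) with groups that did not overlap and was called by DESeq2 (adjusted p = 0.0466), Otc one of 0.15 ± 0.10 (adjusted p = 0.308), Slc25a13 one of 0.029 ± 0.080 (adjusted p = 0.825) and Glul one of -0.21 ± 0.12 (adjusted p = 0.196). In Rev-erbα-/- liver the values were 0.11 ± 0.091 (adjusted p = 0.471) for Gls2, -0.14 ± 0.10 (adjusted p = 0.368) for Otc, 0.21 ± 0.080 (adjusted p = 0.0798) for Slc25a13 and -0.17 ± 0.12 (adjusted p = 0.344) for Glul, and none of these passed. Glul was the only one of the 10 with a negative log2 change in wild-type liver, and its 95% interval there ran from -0.46 to 0.035.

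Without wild-type replicates 2 and 3 at ZT8, 2 of the 6 time effects of wild-type liver were still called, Asl with 0.66 ± 0.19 (adjusted p = 0.0367) and Nags with 0.42 ± 0.11 (adjusted p = 0.0255). Cps1 stood at 0.74 ± 0.23 (adjusted p = 0.0553), Arg1 at 0.35 ± 0.15 (adjusted p = 0.171), Ass1 at 0.35 ± 0.15 (adjusted p = 0.154) and Slc25a15 at 0.15 ± 0.12 (adjusted p = 0.501). With 1 library left at that time, its spread was taken from the other groups, and 1795 genes in place of 4018 were called in all.

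**Figure D4:**
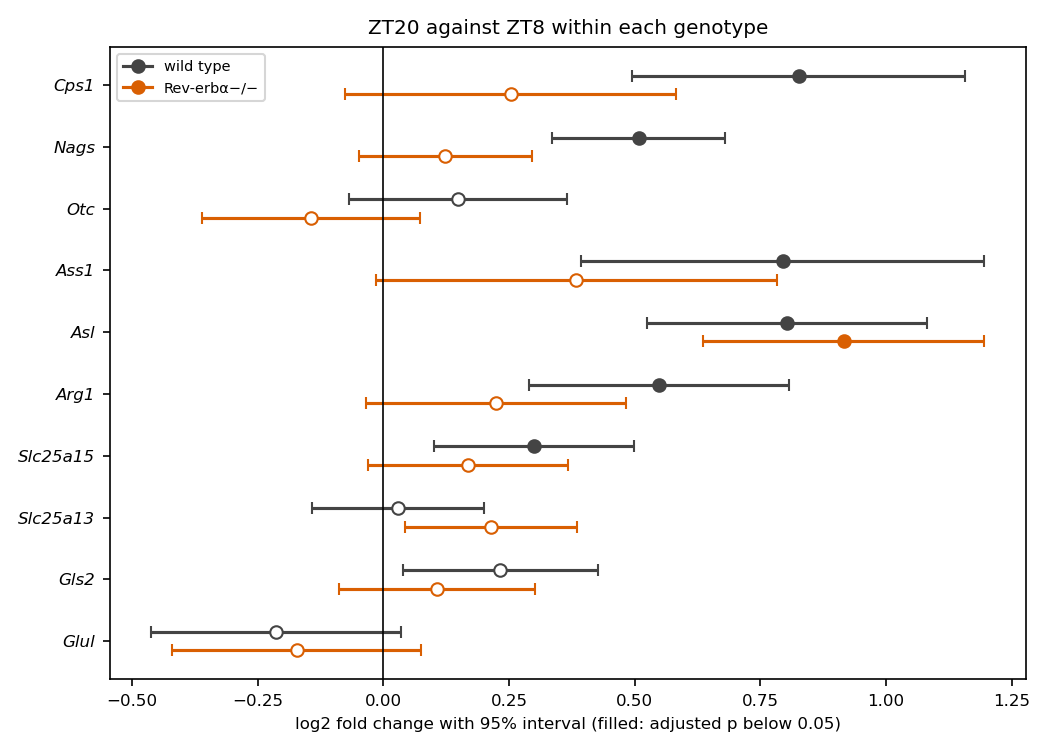
Log2 fold change of ZT20 against ZT8 with its 95% interval for the 10 genes, in wild-type (grey) and Rev-erbα-/- liver (orange), filled where the adjusted p lay below 0.05. There are 6 filled points in wild-type liver and 1, Asl (0.92), in Rev-erbα-/- liver.

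Zonation markers gave a background for these values. Among 10 pericentral markers, 5 were lower and none was higher at ZT20 in wild-type liver, beside 13.9% of all genes lower, and 5 were lower in Rev-erbα-/- liver, beside 8.67%, with sums of 12562 to 13956 CPM at ZT8 and 8511 to 8928 CPM at ZT20 in wild-type liver. Cyp2e1 alone made up most of these sums, with means of 10289 CPM at ZT8 and 6365 CPM at ZT20. Among 8 periportal markers, 4 were higher (Cyp2f2, Hal, Hsd17b13 and Aldh1b1) and 2 lower (Sds and Pck1) in wild-type liver, and their sums were 5432 to 6675 CPM at ZT8 and 4912 to 5921 CPM at ZT20. Pck1 weighed heavily on these sums, with means of 2860 CPM at ZT8 and 943 CPM at ZT20. Without wild-type replicates 2 and 3 at ZT8, 4 of the 5 pericentral calls in wild-type liver (Cyp2e1, Lect2, Lgr5 and Slc1a2) and 1 of the 6 periportal calls (Hal) were still made. In the genotype comparison, the median log2 fold change at ZT8 was 0.10 for the periportal and -0.068 for the pericentral markers, and Aldh1b1 was lower at ZT20 (-0.67 ± 0.087, adjusted p = 0.000334). The part of zonation in the values of the 10 genes was not tested.

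Some markers of hepatocytes and other liver cells also differed with time in wild-type liver, beside 13.8% of all genes higher and 13.9% lower. Of 5 liver endothelial and 7 tested blood cell markers 0 were called, and of 6 stellate cell and fibroblast markers 1 was called lower. The 7 hepatocyte markers summed to 63180.5 to 81935 CPM at ZT8 and 102484 to 112058 CPM at ZT20 in wild-type liver, and to 68979.8 to 97749 CPM and 93508 to 101264 CPM in Rev-erbα-/- liver, and 2 of the 7, Alb (0.82 ± 0.19, adjusted p = 0.00507) and Ttr (0.52 ± 0.16, adjusted p = 0.0275), were higher at ZT20 in wild-type liver. Alb alone made up most of these sums, with wild-type means of 41469 CPM at ZT8 and 73105 CPM at ZT20. Of 5 Kupffer cell markers, with sums of 314 to 496 CPM at ZT8 and 270.2 to 333 CPM at ZT20, Cd5l (-0.85 ± 0.19, adjusted p = 0.00762) and Marco (-2.65 ± 0.73, adjusted p = 0.0244) were lower. Of 5 cholangiocyte markers, with sums of 37.9 to 94.7 CPM and 41.9 to 43.9 CPM, Krt19 (1.35 ± 0.39, adjusted p = 0.0172) and Sox9 (1.08 ± 0.19, adjusted p = 0.000658) were higher. None of these 6 calls was made in edgeR without wild-type replicates 2 and 3 at ZT8. Reads with several alignments, per read counted on a gene, also differed between the times, at 1.76 to 3.28 at ZT8, highest in wild-type replicates 2 and 3, and 1.24 to 1.67 at ZT20. The part of these differences in the time effects of the 10 genes was not tested.

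Wider lists of nitrogen genes were examined for the steps that feed or drain the cycle. Of 27 genes of ammonia release and amino acid breakdown, 4 were higher and none lower in Rev-erbα-/- liver at ZT8, beside 8.45% of all genes called, and 1 was lower at ZT20, beside 3.63% called. These shares also stand beside the lists that follow. Among the 4 were components of the glycine cleavage system, the mitochondrial complex that sets ammonia free from glycine: Gldc, its decarboxylase, Amt, its aminomethyltransferase, and Gcsh, its lipoyl carrier. Gldc lay at 93.5 to 135 CPM in wild-type and 248 to 313 CPM in Rev-erbα-/- liver at ZT8, a log2 change of 1.33 ± 0.15 (adjusted p = 0.000122) or 2.51-fold. Amt changed by 0.45 ± 0.079 (adjusted p = 0.00253) and Gcsh by 0.22 ± 0.065 (adjusted p = 0.0463), a call that was lost in 15 of 21 alternative analyses. The fourth was Aass, the first enzyme of lysine breakdown, with 0.38 ± 0.10 (adjusted p = 0.0274), a call lost in 5 of 21 alternatives. Got1, the cytosolic aspartate aminotransferase, was lower at ZT20, with -0.67 ± 0.16 (adjusted p = 0.0333), a call lost in 11 of 20 alternatives.

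Of 15 tested genes of bicarbonate supply, transport and deacylation, 1 was higher and 1 lower at ZT8. Slc7a2, a carrier of arginine and other cationic amino acids, lay at 900.3 to 966 CPM in wild-type and 414 to 534 CPM in Rev-erbα-/- liver, a change of -0.97 ± 0.15 (adjusted p = 0.00107). Slc1a4, a neutral amino acid carrier, was higher by 0.79 ± 0.20 (adjusted p = 0.0243), a call lost in 5 of 21 alternatives. At ZT20 the call was Car5a, the mitochondrial carbonic anhydrase that supplies bicarbonate to carbamoyl phosphate synthetase 1. It was higher by 0.30 ± 0.070 (adjusted p = 0.028) and had a change of 0.21 ± 0.070 (adjusted p = 0.0754) at ZT8. The call of Car5a was lost in 6 of 20 alternatives, each of which left out 1 library of ZT20.

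Of 10 tested genes of arginine and ornithine side branches and of asparagine synthesis, 2 were higher and none was lower at ZT20. Asns, the asparagine synthetase, lay at 1.02 to 2.55 CPM in wild-type and 14.0 to 20.6 CPM in Rev-erbα-/- liver at ZT20, a change of 3.37 ± 0.47 (adjusted p = 0.00504) or 10.3-fold. At ZT8 its values were 18.4 to 46.3 CPM and 16.2 to 22.8 CPM. Odc1, ornithine decarboxylase, which draws ornithine into polyamine synthesis, was higher at ZT20 by 1.50 ± 0.19 (adjusted p = 0.00104). Arginase 2 (Arg2) did not pass the filter on low counts.

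A list of 12 genes held regulators known to act on urea cycle genes or on amino acid metabolism, and a target gene of the glucocorticoid receptor. Of these, 2 were higher and 2 lower at ZT8. Hnf4a, a nuclear receptor that maintains hepatocyte genes, was higher by 0.35 ± 0.10 (adjusted p = 0.0366), and Tsc22d3, the glucocorticoid receptor target, by 0.55 ± 0.11 (adjusted p = 0.00558). The call of Hnf4a was lost in 10 of 21 alternatives. Foxo3 was lower, with -0.54 ± 0.083 (adjusted p = 0.000916), as was Ppargc1a, a coactivator of the fasting response, with -0.71 ± 0.14 (adjusted p = 0.00525). At ZT20, Tsc22d3 was lower, with -0.42 ± 0.11 (adjusted p = 0.0457), a call lost in 9 of 20 alternatives. Of the 10 calls at ZT8 in these lists, 4 were still called without wild-type replicates 2 and 3, namely Slc7a2, Slc1a4, Gldc and Foxo3.

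**Figure D5:**
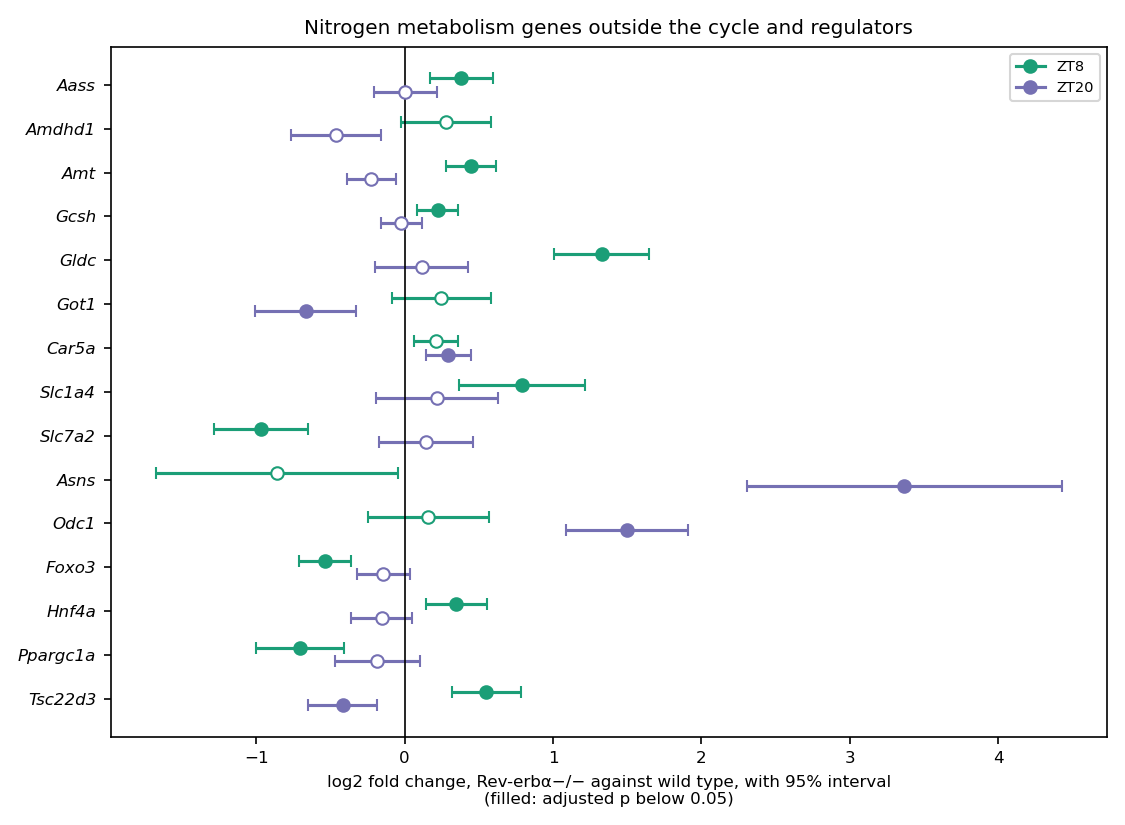
Log2 fold change of Rev-erbα-/- against wild-type liver with its 95% interval, at ZT8 (green) and ZT20 (purple), for every gene of the wider lists that passed in the genotype comparisons or their interaction, filled where the adjusted p lay below 0.05. Gldc lies at 1.33 at ZT8, and Asns at 3.37 at ZT20.

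With time, 11 of the 27 breakdown genes were higher and 2 lower at ZT20 in wild-type liver, beside 13.8% of all genes higher and 13.9% lower, among them Hal, the histidine ammonia lyase (0.97 ± 0.15, adjusted p = 0.000296), and Tat, the tyrosine aminotransferase (0.53 ± 0.11, adjusted p = 0.00182), both higher. Of the 15 tested genes of supply and transport, 2 were higher and 8 lower, among them Slc38a3, a glutamine carrier (-1.09 ± 0.12, adjusted p = 8.15e-06), and Rhbg, an ammonia channel of pericentral hepatocytes (-0.57 ± 0.13, adjusted p = 0.00572), both lower. Without wild-type replicates 2 and 3 at ZT8, 6 of these 13 breakdown calls (Hal and Tat among them) and 8 of the 10 supply and transport calls were still made, Slc38a3 among them, while Rhbg was lost (-0.41 ± 0.19, adjusted p = 0.199). Slc38a3 and Rhbg were also lower in Rev-erbα-/- liver, with -0.97 ± 0.12 (adjusted p = 5.8e-05) and -0.77 ± 0.14 (adjusted p = 0.00142).

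The 10 genes varied together to different degrees across the 12 livers. Of their 45 pairs, 13 had a Pearson correlation of log2 CPM above 0.8, and all 9 negative correlations involved Glul. Within groups, as deviations from the 4 group means, 8 of the 9 correlations with Glul were positive. Among 8045 candidate genes, the profile most like the mean of the cycle genes was that of Leap2, a liver-expressed antimicrobial peptide (r = 0.987 over 12 libraries), followed by Gm5424, the Ass1 pseudogene (0.981), and the proteasome subunit Psmd7 (0.976). Ass1 is part of that mean and Gm5424 is its near-identical copy, so the likeness of Gm5424 was partly built in. Gls2 was most like Cth, the cystathionine gamma-lyase (0.979), and Abat, the GABA transaminase (0.967). Glul was most like Rogdi (0.933) and Ppl (0.914). These 12 points share their 4 groups, their libraries and the high acute-phase transcripts of 2 of them, and the values are given as a description.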

How the data were processed

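The authors aligned the 75 bp reads of their poly(A) libraries with TopHat (mm10). Reads with 1 placement were assigned to genes by HTSeq in union mode, at a minimum quality of 10 and without strand. They deposited raw counts for each of the 12 samples, without normalization, and used DESeq2 1.6.3 themselves.

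From these counts, CPM was scaled by TMM factors, and an edgeR 4.0.16 quasi-likelihood model (R 4.3.3, filterByExpr, robust, 4 group means over 12 samples) was fitted to all 14488 genes tested. P-values were adjusted by Benjamini-Hochberg within each of 5 contrasts, with a threshold of 0.05, and DESeq2 1.42.0 was an alternative. Effects are on the log2 scale with SE = |log2 fold change| / √F. The 95% intervals are for the difference between groups and rest on the spread between samples. The interaction is the change at ZT8 minus that at ZT20. The model was tested on simulated data. Reads that align to several places were not in the gene counts. The summary lines for reads without a gene (9.66 to 11.5 reads without a feature per 100 counted) stayed out of library sizes. Near-identical copies were found by aligning GENCODE transcripts.

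The 10 genes and all gene lists were chosen with earlier results of these data known. Of the wider lists, the genes named were those that passed in a genotype comparison, at most 8 per comparison by lowest p, and the time examples were chosen after their values were seen. Adding the copies' counts and leaving out both libraries with high acute-phase transcripts were also chosen after seeing the data.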

Additional observations from a re-analysis of the deposited data

Results flagged for a closer look

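None of the 10 genes had a genotype effect that differed between ZT8 and ZT20 by the interaction test, but 9 of 64 tested genes of the wider lists and 1 of 13 further zonation markers did, beside 5.88% of all genes, in edgeR with Benjamini-Hochberg adjustment over all genes. The value is the log2 change at ZT8 minus that at ZT20, with its SE. It was positive for Gldc (1.21 ± 0.21, adjusted p = 0.00361) and Amt (0.67 ± 0.11, adjusted p = 0.00194) of the glycine cleavage system, for Got1 (0.92 ± 0.22, adjusted p = 0.0274) and for Amdhd1, an enzyme of histidine breakdown (0.74 ± 0.20, adjusted p = 0.0458). It was also positive for the glucocorticoid receptor target Tsc22d3 (0.97 ± 0.15, adjusted p = 0.0014) and for the regulator Hnf4a (0.50 ± 0.14, adjusted p = 0.0415). It was negative for Asns (-4.22 ± 0.59, adjusted p = 0.00417), Odc1 (-1.34 ± 0.26, adjusted p = 0.0124) and Slc7a2 (-1.11 ± 0.21, adjusted p = 0.00554). Of the zonation markers, the periportal Aldh1b1 had 0.81 ± 0.12 (adjusted p = 0.000996). The interaction call was lost in 11 of 20 alternative analyses for Got1, 13 for Amdhd1, 11 for Hnf4a and 1 for Odc1. Tsc22d3 was called in opposite directions at the 2 times. Its call at ZT20 was lost in 9 of 20 alternatives, and that at ZT8 in 1 of 21. Without wild-type replicates 2 and 3 at ZT8, Gldc, Amt, Asns, Slc7a2, Tsc22d3 and Aldh1b1 of these 10 were still called.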

How the results depend on the processing

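Of 1020 values recomputed for the 10 genes, 957 kept their direction and their side of the threshold, 27 were no longer called, 13 became called and 23 changed sign. The 2 calls at ZT8 became 0 at an adjusted p below 0.01, 0 with only the 6 samples compared, 1 without scaling factors (Nags) and 0 without both wild-type libraries with high acute-phase transcripts. Leaving out 1 library at a time gave 0 to 4 calls at ZT8, 0 to 2 in the interaction, 5 to 7 over time in wild-type liver and 1 to 3 in Rev-erbα-/- liver. DESeq2 called 3 genes at ZT8 (Cps1, Arg1 and Nags), 0 at ZT20, 1 in the interaction (Nags), 7 over time in wild-type liver (Gls2 in addition to the 6) and 2 over time in Rev-erbα-/- liver (Asl and Slc25a13), where the 6 samples alone also gave 2 (Ass1 and Asl). Of all genes, DESeq2 called 1503 of 13297 at ZT8, 679 of 15545 at ZT20 and 1086 of 15545 in the interaction. Over time it called 3894 of 15994 in wild-type and 2579 of 15095 in Rev-erbα-/- liver. The 6 samples alone gave 769 of 13749 at ZT8 and 2275 of 13925 over time in Rev-erbα-/- liver. Without both wild-type libraries with high acute-phase transcripts, 2 genes were called over time in wild-type liver. Apart from the alternatives that drop samples or lower the threshold, the cause of these differences was not tested.

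The replicate numbers did not pair the samples, since deviations from the group means of samples with the same number correlated between -0.095 and 0.10, and 1 of 12 samples correlated best with its own number. With the replicate number as a block, 1 gene was called at ZT8 (Arg1), and the block changed no other count of called members.

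Values that changed sign were uncalled in every case. Without both libraries, Ass1 and Gls2 had -0.25 and -0.026 at ZT8 and -0.038 and -0.040 in the interaction, Slc25a15 -0.021 in the interaction, and Otc and Slc25a13 -0.055 and -0.12 over time in wild-type liver. Without scaling factors, Slc25a13 had -0.042 over time in wild-type liver. With 1 library left out at a time, values that changed sign ran at ZT8 from -0.097 to 0.043 for Asl and from -0.086 to 0.049 for Slc25a13. At ZT20 they ran from -0.29 to 0.062 for Cps1, from -0.093 to 0.0054 for Otc, from -0.033 to 0.046 for Gls2, from -0.013 to 0.11 for Slc25a15 and from -0.022 to 0.23 for Asl. In the interaction Glul ran from -0.13 to 0.026, and over time in wild-type liver Slc25a13 ran from -0.034 to 0.095.

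Over all genes, leaving out 1 library gave 542 to 1811 calls at ZT8 (1224 with all), 239 to 656 at ZT20 (526), 493 to 1260 in the interaction (852), 2865 to 4195 over time in wild-type liver (4018) and 1566 to 2847 in Rev-erbα-/- liver (2530). Of 1848 recomputed values of called genes in the wider lists, 222 were no longer called and none changed sign.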
